A study of Caenorhabditis elegans with 3 samples.

Results

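The genes described here are the neuropeptide genes of the nematode Caenorhabditis elegans whose names start with flp- or nlp-, taken from the protein-coding genes of the Ensembl annotation of WBcel235. The rule found 102 members, 31 flp and 71 nlp genes, among 19973 nuclear protein-coding genes. They were asked for PQM-1, a zinc finger transcription factor, by chromatin immunoprecipitation and sequencing (ChIP-seq), which recovers the DNA bound by a protein. The study has 1 group and no contrast between conditions. It comprises 3 libraries of whole L4 larvae, males and females pooled, from 2 biological replicates. The larvae were of strain OP201, with the mutation unc-119(tm4063) on chromosome III and the transgene wgIs201, and the labels describe a stable line whose PQM-1 carries GFP and FLAG at its C-terminus. The antibody label reads pqm-1, and the labels do not say whether PQM-1 without the tag was recovered too. What is measured is PQM-1 in whole animals. A site used in few cells and a site bound weakly in many cannot be told apart.

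The flp genes encode precursors of FMRFamide-like peptides, and the nlp genes encode precursors of other neuropeptide-like proteins, among them several antimicrobial peptides of the epidermis. Such precursors are cut by proprotein convertases, trimmed by carboxypeptidases, amidated, packed into dense core vesicles and released, mostly by neurons, to act on G protein-coupled receptors. PQM-1 is known mainly from the intestine, where it is tied to growth and metabolic genes and to the GATA-like word TGATAAG.

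The optimal peak list of the authors, thresholded by the irreproducible discovery rate, held 4739 peaks on ce11 with signals from 31.5 to 350. Signal is the value the authors gave each peak against a control, on a scale that is not given in the sources used here. Longer lists, which also hold background peaks, had 18821 peaks for the pooled replicates, 24037 for replicate 1 and 19029 on nuclear chromosomes for replicate 2. Levels are compared within a list only. Promoters reach 1000 bp upstream and 200 bp downstream of the first annotated start of a gene, with upstream offsets negative, and a gene counts when a peak summit lies there.

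PQM-1 summits were rare at the neuropeptide promoters. None of the 31 flp genes had one in the optimal list (0%, 95% exact Clopper-Pearson interval 0 to 11.2%). Of the 71 nlp genes 2 had one (2.82%, 95% interval 0.343 to 9.81%), namely nlp-40 and nlp-62. Among all genes the share was 12.8%, and among the 19871 genes outside both classes it was 12.8% as well, or 2551 genes (95% interval 12.4 to 13.3%). For both classes together the share was 1.96% (2 of 102, 95% interval 0.238 to 6.90%), an interval that ends below that of the other genes. The intervals cover the counting of genes, which are not replicates. They treat genes as independent, although neighbouring members such as nlp-28 and nlp-29 share a nearest summit, so they may be too narrow. No test of the classes was made.

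The stronger of the 2 member promoter peaks stood at nlp-40 (WBGene00022276), whose peptide is released by the intestine at each defecation cycle and acts on the receptor AEX-2 of enteric neurons. The peak lay on chromosome I at 11138 to 11481, between genes, and peaked at −185 bp. Its signal was 50.4 in the pooled data, where it ranked 2729 of 18821. In the separate lists nlp-40 had 23.0 in replicate 1, at rank 1405, and 29.7 in replicate 2, at rank 3569. Either rank is inside the first 4739 of its list. Within 100 bp of the summit there was no TGATAAG but 3 GATA cores, that is AGATAA or AGATAG and their counterparts TGATAA or TGATAG on either strand, the nearest starting 37 bp away.

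A second optimal peak lay inside nlp-40, from 15263 to 15606 with the summit at 3940 bp from the start. It fell in an intron, downstream of the start of the shortest transcript at 3608 bp. The signal of this intronic peak was 39.5 in the pooled list, 11.6 in replicate 1 and 29.2 in replicate 2. Unlike the promoter peak, the intronic one held TGATAAG, centred 10 bp from the summit.

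**Figure D1:**
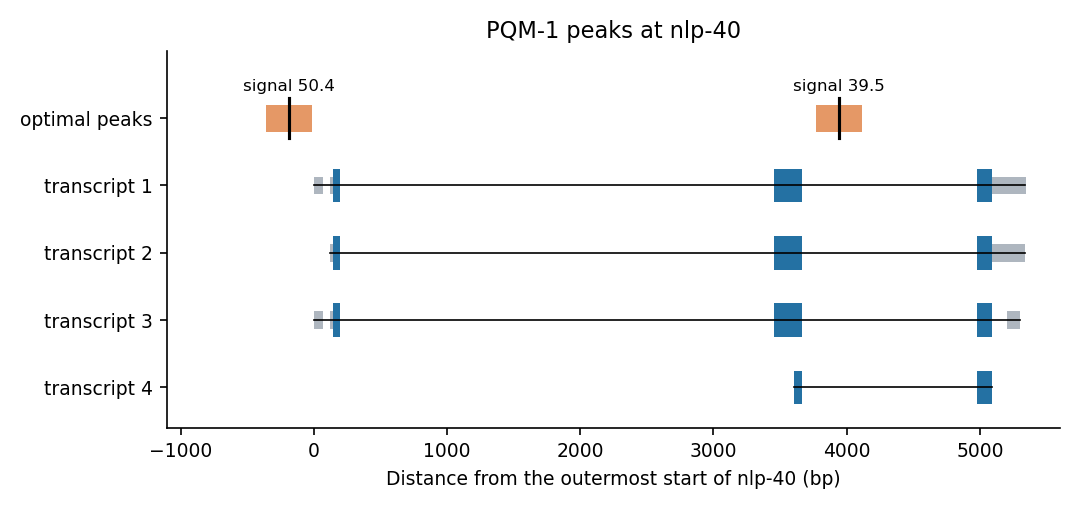
Map of nlp-40 with distance from its outermost start in bp on the x axis. The top row shows the 2 optimal peaks (bars) with their summits (ticks) and pooled signals, and the rows below show the annotated transcripts with coding exons in blue, other exon sequence in grey and introns as lines. The summits stand at −185 bp and in an intron at 3940 bp.

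nlp-62 (WBGene00018005) had the other promoter peak, at 5854696 to 5855039 on chromosome I. Its summit lay 172 bp downstream of the start, in an intron. The signal was 32.01 in the pooled list, at rank 4663 and so close to the end of the optimal list. Replicate 2 gave 26.6 at rank 4030, whereas replicate 1 gave 5.92 at rank 7638. The summit of replicate 2 stood at 208 bp, just outside the promoter window. TGATAAG occurred near the pooled summit at 172 bp, centred 34 bp from it. A tRNA gene at 5854794 to 5854865 lies 3 bp from this pooled summit. Summits within 100 bp of a tRNA gene made up 16 of the 4739, and the part of the tRNA gene in this peak was not tested.

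With a pair of bound members, the level at bound promoters can only be described. The median signal was 41.2 over nlp-40 and nlp-62 and 55.3 over the 2551 other genes with a promoter summit. TGATAAG lay within 100 bp of a promoter summit at 1 of the 2 members and at 41.8% of those other genes.

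Below the optimal list, summits at neuropeptide promoters stayed sparse in the pooled list. After nlp-62 at rank 4663, the next member was nlp-59 at rank 8736, while 1993 other genes had their best promoter peak between these ranks. With the 9478 strongest pooled peaks, 1 flp gene (3.23%) and 3 nlp genes (4.23%) had a promoter summit, against 23.9% of all genes. The whole pooled list gave 2 flp genes (6.45%, 95% interval 0.791 to 21.4%) and 15 nlp genes (21.1%, 95% interval 12.3 to 32.4%), beside 35.2% of all genes. At every length of the list both classes stood below the other genes, and most nlp genes counted came in below the 9478 strongest peaks.

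**Figure D2:**
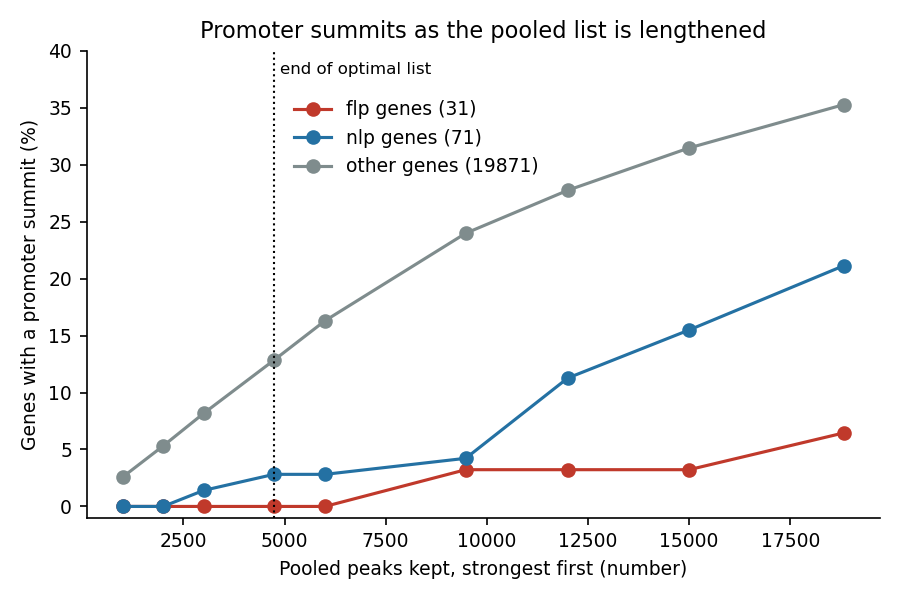
Share of flp, nlp and other genes with a promoter summit (y axis, %) against the number of pooled peaks kept, strongest first (x axis). The dotted line marks the 4739 peaks of the optimal list, where the flp curve is at 0%, the nlp curve at 2.82% and that of the other genes at 12.8%.

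The weak promoter peaks of the 15 further members had pooled signals from 7.88 to 15.1 with a median of 10.4, compared with a median of 13.7 over 4457 other genes bound at this level only. The strongest, at nlp-59, had 15.1 in the pooled list, 2.56 in replicate 1 and 12.0 in replicate 2. flp-20, a peptide gene of the touch receptor neurons, had 14.2 in the pooled list at 161 bp and 4.41 in replicate 1, with no match to this peak in replicate 2. A second weak peak of flp-20, at −64 bp, had 8.94 in the pooled list, 2.79 in replicate 1 and 9.55 in replicate 2. nlp-53 had 13.2 in the pooled list and 10.5 in replicate 2. These levels lie below the weakest optimal peak, at 31.5.

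nlp-31 and nlp-34, antimicrobial peptide genes of the epidermis that point away from each other, shared 1 weak peak of pooled signal 13.1, with 2.64 in replicate 1 and 11.5 in replicate 2. Its summit stood at −441 bp from nlp-31 and −480 bp from nlp-34. The other named members were nlp-36 with a pooled signal of 12.6, nlp-56 with 11.2, nlp-80 with 10.4, nlp-4 with 9.24 and nlp-24 with 9.13. Those of nlp-36 and nlp-80 had no match in either replicate, and that of nlp-56 had 4.63 in replicate 1 and 6.39 in replicate 2. The weak peak of nlp-36 overlaps an optimal peak with its summit at −1104 bp. That optimal peak was matched in both replicates, by summits nearer to it than to the weak one. For its strongest weak peak, 8 of the 15 members had a match in replicate 1, 9 in replicate 2 and 4 in both. Those matched in both include nlp-31 and nlp-34, which share 1 peak. With any weak promoter peak counted, which adds that of flp-20, the counts for replicate 1, replicate 2 and both were 8, 10 and 5. A GATA core lay within 100 bp of the strongest summit at 9 of the 15 members and TGATAAG at 1, nlp-36. The same matches and sequences were not counted for the weak peaks of other genes, so these counts have no background beside them.

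**Figure D3:**
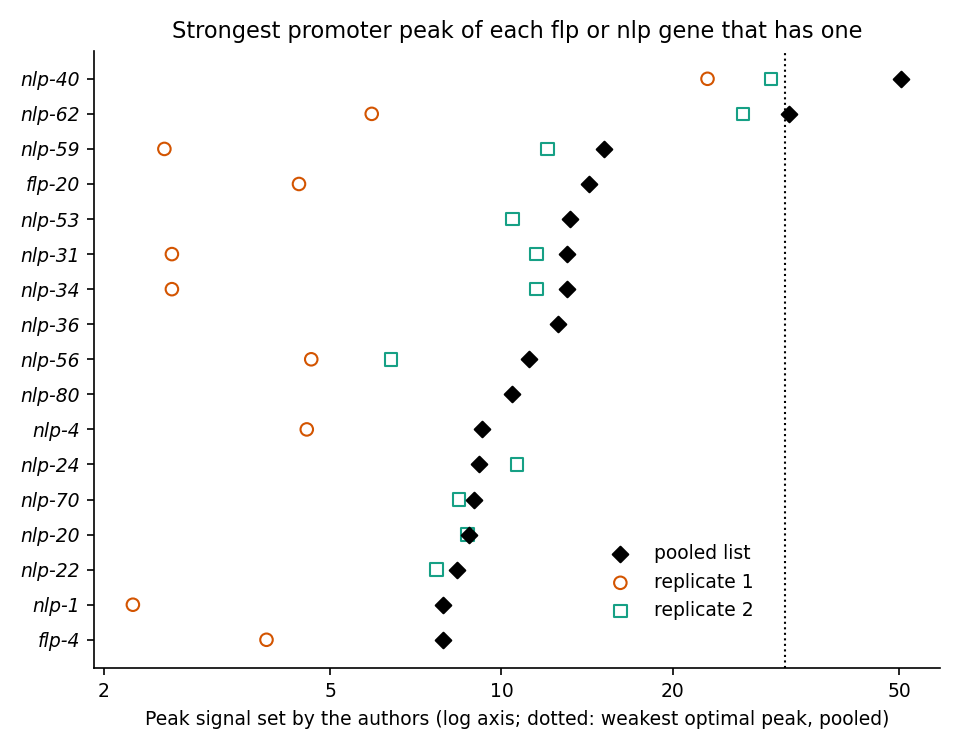
Signal of the strongest pooled promoter peak (x axis, log scale) of each of the 17 flp and nlp genes with one, as diamonds, and of the matching peak in replicate 1 (circles) and replicate 2 (squares), where there is one. Scales differ between lists, and the dotted line is the weakest optimal peak on the pooled scale, which nlp-40 and nlp-62 exceed.

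The long lists of the replicates gave different counts at flp genes. In the whole list of replicate 1 a promoter summit was present at 9 flp genes (29.03%) and 16 nlp genes (22.5%), against 38.0% of all genes. In that of replicate 2 it was present at 2 flp genes (6.45%) and 13 nlp genes (18.3%), against 34.8% of all genes. No promoter summit in any of the 4 lists was found for 67 members, 22 of them flp and 45 nlp genes. That is 67 of 102, beside 52.6% of all genes.

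Optimal summits also lay farther from neuropeptide genes. The median distance from the start to the nearest summit was 13155 bp for flp genes, 11344 bp for nlp genes and 8598 bp for other genes. Within 5000 bp on either side a summit was found at 3 flp genes (9.68%) and 16 nlp genes (22.5%), against 35.8% of all genes. Within 2000 bp no flp gene and 9 nlp genes (12.7%) had one, beside 20.3% of other genes. The nearest summit to an flp gene was 3783 bp from flp-28, in the promoter of W07E11.1. flp-19 followed with a summit at −4862 bp and flp-11, the peptide gene of the sleep-active neuron RIS, with one at 4874 bp. Neuropeptide genes have more free sequence upstream, with a median of 5185 bp for flp, 2293 bp for nlp and 934 bp for other genes to the next protein-coding gene. Among genes with at least 1000 bp free the promoter shares were 0 of 25 for flp, 2 of 54 (3.70%) for nlp and 1244 of 9521 (13.1%) for other genes.

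**Figure D4:**
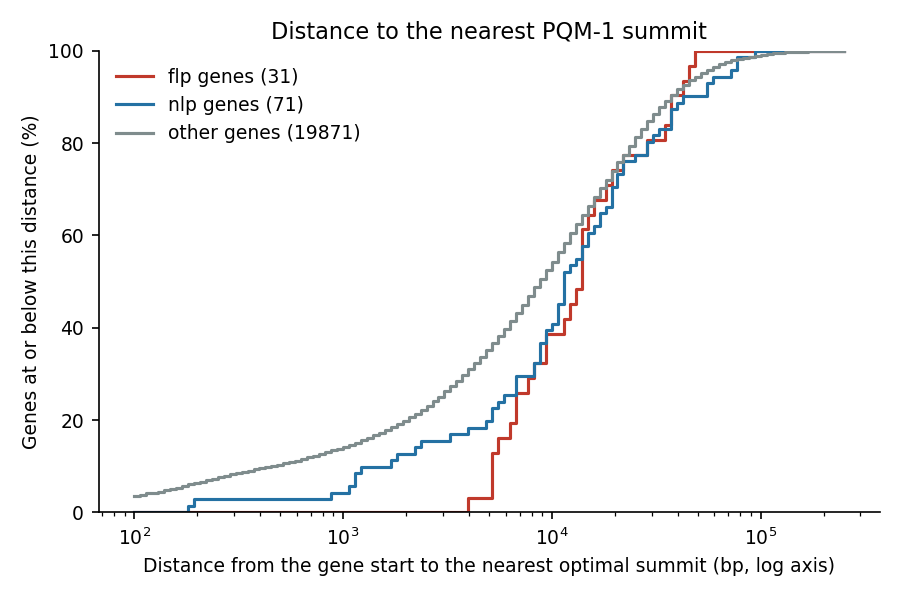
Cumulative share of genes (y axis, %) by distance from the gene start to the nearest optimal summit (x axis, bp, log scale). The flp curve stays at 0 up to its nearest summit at 3783 bp, and the medians are 13155 bp for flp, 11344 bp for nlp and 8598 bp for other genes.

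The X chromosome, where promoter summits were more frequent than in the whole genome, holds many of these genes. It carries 13 of the 31 flp genes (41.9%) and 19 of the 71 nlp genes (26.8%), compared with 13.6% of other genes. None of these 32 members had a promoter summit, against 16.3% of all genes on X. On the autosomes the shares were 0 of 18 flp genes, 2 of 52 nlp genes (3.85%) and 2107 of 17172 other genes (12.3%). Both bound members lie on chromosome I, where 7 nlp and 2 flp genes are found.

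Of the 100 members without a promoter summit, the nearest optimal summit lay in the promoter of another protein-coding gene for 55 and in no promoter for 45. Among all genes without a promoter summit 53.9% had it in the promoter of another, so the members were near the background. The strongest optimal summit within 2500 bp of a member was 1679 bp downstream of the start of nlp-1, with 158 in the pooled list, 48.9 in replicate 1 and 107 in replicate 2. This peak on X, from 3729129 to 3729329, lies 28 bp upstream of aex-4, which encodes a SNAP25 protein of intestinal exocytosis and is named here after its values were seen. The summit 1083 bp from the start of nlp-57 (pooled signal 70.9) lies in the promoter of hizr-1, a zinc-sensing nuclear receptor gene. Those upstream of nlp-58 (65.4), nlp-64 (59.7) and nlp-56 (37.8) lie in the promoters of ttr-46, M02E1.4 and melo-1, and the one at 857 bp from nlp-4 (54.8) in that of F59C6.18.

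A few near summits belonged to no promoter. nlp-67 was the only one of the 102 members besides nlp-40 with an optimal summit inside its span beyond the promoter, a feature of 5.62% of all genes. Gene length, which sets the room for such a summit, was not taken into account. The nlp-67 summit lay 1014 bp from the start, in the non-coding part of the last exon, with 57.3 in the pooled list, 11.9 in replicate 1 and 42.3 in replicate 2. Upstream of nlp-36 a summit between genes at −1104 bp, just beyond the promoter, had 68.4 in the pooled list, 16.2 in replicate 1 and 59.3 in replicate 2. A promoter of 2000 bp upstream includes it and those of nlp-19 and nlp-64, which brings the nlp count to 5. The summit at −1182 bp from nlp-19 (33.1 in the pooled list, 4.71 in replicate 1 and 30.1 in replicate 2) lies in an intron of pbo-4, a sodium-proton exchanger gene of the intestine.

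Sequence around 5 of these summits, centred on the summit and read from RefSeq's WBcel235 assembly, is printed to show examples of the letters at PQM-1 peaks near neuropeptide genes. Capitals mark TGATAAG and the 4 GATA cores on either strand, each sequence is written 5′ to 3′ on the strand of the flp or nlp gene named, and the one between nlp-1 and aex-4 stops at the start of aex-4.
nlp-36 (chrIII:9487577-9487677, plus strand): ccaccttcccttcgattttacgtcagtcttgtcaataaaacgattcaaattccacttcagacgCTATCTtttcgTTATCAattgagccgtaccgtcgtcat
nlp-19 and pbo-4 (chrX:10957495-10957595, plus strand): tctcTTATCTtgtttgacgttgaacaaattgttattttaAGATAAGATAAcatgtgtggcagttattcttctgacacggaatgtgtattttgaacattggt
nlp-1 and aex-4 (chrX:3729203-3729280, plus strand): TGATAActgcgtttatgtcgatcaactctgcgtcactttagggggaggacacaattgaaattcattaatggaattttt
nlp-57 and hizr-1 (chrX:11318083-11318183, plus strand): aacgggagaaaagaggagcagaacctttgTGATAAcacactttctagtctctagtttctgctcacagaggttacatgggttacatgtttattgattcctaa
nlp-58 and ttr-46 (chrV:9951001-9951101, minus strand): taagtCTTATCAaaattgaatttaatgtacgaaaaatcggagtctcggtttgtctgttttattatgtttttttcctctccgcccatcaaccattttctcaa
All 5 hold a GATA core in the stretch printed, and they were picked from 8 nearest summits that lay within 2500 bp of a member and outside its promoter and span. Of these 8, 7 had a GATA core within 100 bp of the summit, the exception being the one near nlp-4, while 84.2% of all optimal summits had one. The sequence at nlp-58 holds TGATAAG as its reverse complement. Within 100 bp of the summit TGATAAG was also present at the peak of aex-4, centred 30 bp from its summit. There it runs past the end of the stretch printed, so it is not seen in it. The word was absent within 100 bp of the summits of nlp-36, nlp-19 and nlp-57.

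The share of promoters with TGATAAG was lowest for flp genes, and the interval of the nlp genes reached beyond the share of all genes. It was present on either strand in 1 flp promoter of 31 (3.23%, 95% interval 0.0816 to 16.7%) and in 12 of the 71 nlp promoters (16.9%, 95% interval 9.05 to 27.7%), beside 23.7% of all promoters of the same length. Of the 13 members with the word, 1 had a promoter summit (7.69%, 95% interval 0.195 to 36.0%), against 28.7% of all genes with the word. That member was nlp-62, since the promoter of nlp-40 holds none. GATA cores, which every TGATAAG contains, did not follow this order. They were present in 30 of 31 flp promoters (96.8%), 69 of 71 nlp promoters (97.2%) and 93.3% of other promoters, with a median of 3 in each class. GTAAACA, the DAF-16 binding element, occurred in 2 flp promoters (6.45%), 11 nlp promoters (15.5%) and 15.1% of other promoters. Median GC content was 36.6% for flp, 35.1% for nlp and 34.9% for other promoters.

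**Figure D5:**
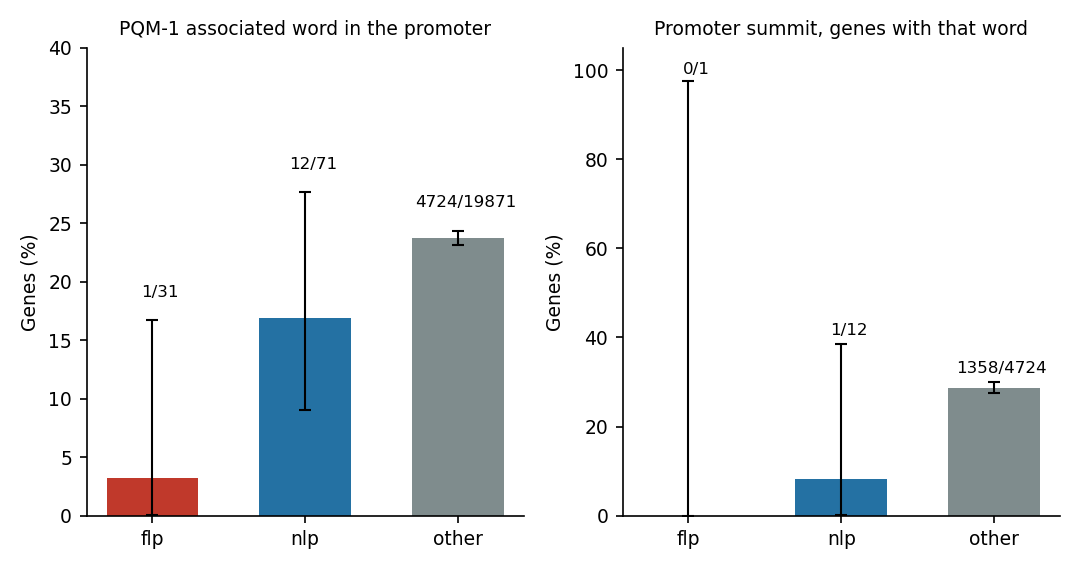
Left, share of flp, nlp and other genes with TGATAAG in the promoter (y axis, %). Right, share of those genes that also have an optimal promoter summit. Bars give shares, error bars 95% exact intervals and labels the counts, from 1 of 31 flp genes on the left to 1358 of 4724 other genes on the right, where the flp class has 1 gene only.

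Of the 13 members with the word, 12 had no optimal promoter summit. The sites of 10 of them are printed to show the word in promoters without an optimal summit, and those of nlp-12 and nlp-39 are not printed. Each is given with 11 bases on either side on the strand of its gene, with the word or its reverse complement in capitals.
flp-19 (chrX:10604004-10604032, plus strand): attaactacacCTTATCAaaccgttttgt
nlp-7 (chrX:8592922-8592950, plus strand): agcccagtgtgCTTATCAatcatttcctt
nlp-26 (chrV:19613291-19613319, plus strand): acatttcaaaaCTTATCAcgttgataaca
nlp-27, farther site (chrV:3988572-3988600, plus strand): cgaaacaaaatCTTATCAactcaacattt
nlp-27, nearer site (chrV:3989292-3989320, plus strand): aaaaagatgatCTTATCAgttagttgttt
nlp-31 (chrV:3979994-3980022, plus strand): gtgaccgcgtcTGATAAGatagtgtgttg
nlp-36 (chrIII:9487844-9487872, plus strand): tcattgattacTGATAAGgtattacacgt
nlp-49 (chrX:5904246-5904274, plus strand): ttcaactcattCTTATCAtggttttctgt
nlp-58 (chrV:9949489-9949517, minus strand): ttctcaatcaaCTTATCAaggccaagttg
nlp-66 (chrX:11117591-11117619, minus strand): aattagtccatTGATAAGaagtttgtaat
The site of nlp-31 also lies in the promoter of nlp-34, on the other strand. It starts 50 bp upstream of nlp-31, whereas the weak summit these genes share stands at −441 bp. At nlp-36 the word starts at −876 bp, beside the weak summit at −905 bp of signal 12.6 and not beside the optimal one at −1104 bp. nlp-27, from the same antimicrobial group as nlp-31, holds the word in 2 places, at −795 and −75 bp, and its nearest optimal summit is 18742 bp away in the promoter of cyp-34A9. The only flp site, that of flp-19, starts at −671 bp.

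Grouped by known role, the members form lists too short to set apart from the 12.8% of all genes with an optimal promoter summit. The epidermal antimicrobial nlp genes had 0 of 10 (95% interval up to 30.9%), with 3 of them (nlp-24, nlp-31 and nlp-34) in the pooled list. The peptide genes of lethargus and stress-induced sleep (flp-11, flp-13, flp-24, nlp-8, nlp-14 and nlp-22) had 0 of 6 (95% interval up to 45.9%). The ligands of the receptor NPR-1, flp-18 and flp-21, and those of EGL-6, flp-10 and flp-17, had 0 of 2 each (95% interval up to 84.2%). nlp-62 is in none of these lists. Of the pair known as peptides secreted by the intestine, nlp-40 had a summit and flp-2 did not, with its nearest one at 11062 bp. For flp-18 the nearest summit was strong (signal 168) but lay 13155 bp away, in the promoter of the lectin gene clec-265.

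Genes that make, release or break down the peptides had a higher share of promoter summits than the peptide genes, a difference that was not tested. Of 21 genes for processing, dense core vesicles and peptide breakdown, 5 had an optimal promoter summit (23.8%, 95% interval 8.22 to 47.2%). This interval holds the 12.8% of all genes, so the list is too short to set apart from them. aex-5, a proprotein convertase gene needed for the defecation cycle, had 44.2 in the pooled list, 17.7 in replicate 1 and 27.2 in replicate 2. snt-2, a synaptotagmin gene that acts in the release of NLP-40 from the gut, had 41.4 in the pooled list, 11.6 in replicate 1 and 30.2 in replicate 2. The promoter of the ribosomal protein gene rps-29 also holds the snt-2 summit. egl-21, the carboxypeptidase gene of peptide trimming, had a summit at −948 bp with 41.6 in the pooled list, 12.3 in replicate 1 and 30.7 in replicate 2, and it falls in a coding exon of F01D4.5. The other genes were bli-4, a furin-like convertase of cuticle formation, with a pooled signal of 37.3, and hid-1, a gene of dense core vesicle maturation, with 32.5. The convertase gene egl-3, which acts in most peptidergic neurons, had no promoter summit, its nearest one being 12562 bp away.

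Of 98 peptide receptor genes, 2 had an optimal promoter summit (2.04%, 95% interval 0.248 to 7.18%), beside the 12.8% of all genes. The difference from the peptide genes was not tested. npr-30 had 76.6 in the pooled list, 20.9 in replicate 1 and 56.0 in replicate 2, at a summit shared with the promoters of fbxa-6 and cTel54X.2 near the end of chromosome III. trhr-1, the gene of a thyrotropin-releasing hormone receptor homologue, had 48.9 in the pooled list, 7.42 in replicate 1 and 44.1 in replicate 2. The frpr class had 0 of 20 (95% interval up to 16.8%) and the dmsr class 0 of 16 (up to 20.6%), intervals that hold the share of all genes, and the npr class had 1 of 43 (0.0589 to 12.3%). aex-2, the receptor gene for NLP-40, had its nearest summit 13854 bp away.

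Among other secreted peptides, 4 of 38 insulin-like genes had an optimal promoter summit (10.5%, 95% interval 2.94 to 24.8%), a share near the 12.8% of all genes, which its interval holds, and the interval also overlaps that of the nlp genes. These were ins-7 (pooled signal 66.1), ins-35 (57.1), ins-12 (57.0) and ins-39 (45.5). The full list of 46 genes of other peptide families had no further bound member (8.70%). The caenacin genes, antimicrobial peptide genes close to the epidermal nlp genes, had 0 of 11 (95% interval up to 28.5%).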

How the data were processed

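Peak lists of 3 ChIP-seq libraries, 2 of replicate 1 and 1 of replicate 2, were used as deposited on ce11: the optimal list, the pooled list and the list of each replicate. Each gives a signal per peak that the authors set against a control alignment, per the deposited readmes. For aligner, peak caller and threshold the sources used here give no name or value. The lists hold no read counts, so the depth is unknown. ce10 copies and the control were not used here.

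Genes came from Ensembl release 115 for WBcel235, the same build, and every peak lay within its chromosome lengths. Summits were assigned to promoters, and exact Clopper-Pearson intervals at 95% were formed with Python 3.11.15, pandas 2.3.3, NumPy 2.4.6 and SciPy 1.17.1. The scripts were tested on simulated data. A replicate's peak was matched to a pooled peak when they overlapped by at least 1 bp and no other pooled summit was nearer. With 1 group no contrast was tested.

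The members, lists and alternatives were chosen with earlier results of these data known. Genes named are the members with an optimal promoter summit or one inside the gene, the 10 strongest members below the optimal list and bound genes of the lists. Members within 2500 bp of an optimal summit, those with TGATAAG, aex-4, pbo-4 and the genes given for their distance to a summit were added after their values were seen.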

Additional observations from a re-analysis of the deposited data

How the results depend on the processing

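The flp count stayed at 0 under 9 of 10 alternatives and was 1 (flp-20) with 2 times as many pooled peaks. The nlp count of 2 became 0 in the stronger 50% of the peaks, 1 without either replicate in turn (lowest 1, highest 1, each time nlp-40), 5 with a promoter of 2000 bp upstream, and 1 without summits within 100 bp of a tRNA gene, an alternative chosen after seeing the data. It was 3 with 2 times as many pooled peaks (nlp-59 added) and 3 when any overlap of a peak counted (nlp-36 added). The share of other genes was 6.37% in the stronger 50%, 12.76% without replicate 1 and 12.77% without replicate 2. Their share was 16.9% with a promoter of 2000 bp upstream and 12.8% without summits near tRNA genes. With 2 times as many pooled peaks it was 23.98%, and with any overlap 13.8%. The count of members whose promoter summit had TGATAAG nearby, 1, became 0 in the stronger 50%, 0 without either replicate (lowest 0, highest 0) and 0 without summits near tRNA genes, since nlp-62 alone makes it. The median signal of 41.2 was 23.0 to 29.7 in the lists without a replicate, whose scales differ from that of the optimal list. Midpoints, a shorter promoter and the start of every transcript left these 4 values as they were. No paired analysis was possible because the study has 1 group.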

Other observations

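The 6 aex genes, named for a defect in the defecation cycle and looked at as a class after the peaks of aex-4 and aex-5 were seen, had optimal promoter summits at 3, beside 12.8% of all genes. aex-4 had a pooled signal of 158, with 48.9 in replicate 1 and 107 in replicate 2. aex-1 had 49.6 in the pooled list, 23.7 in replicate 1 and 24.6 in replicate 2, and aex-5 had 44.2, 17.7 and 27.2 in the same lists. The class was chosen for its values, so its count was not tested.

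flp-23 had a promoter peak in both replicates' own lists, with 5.81 in replicate 1 and 7.09 in replicate 2, and none in the pooled list. Its nearest optimal summit had a signal of 82.4 and lay 6353 bp from the start.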
